A study of Mus musculus with 6 samples.

Results

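The genes described here encode the synaptonemal complex, the zipper-like scaffold that joins homologous chromosomes in meiotic prophase, and the HORMA domain proteins that mark chromosome axes before they are joined. The list holds 10 genes (Sycp1, Sycp2, Sycp3, Syce1, Syce2, Syce3, Tex12, Hormad1, Hormad2 and Trip13). In the whole series, 19938 genes have a transcript cluster (a set of array probes summarised to 1 value) that the array annotation assigns to 1 symbol. Where a gene had several clusters, the one with the highest mean over the arrays was taken. A cluster was found for 9 of the 10, and all 9 were among the 17925 genes tested. The annotation used here assigns no cluster to Syce3, which is not analysed here.

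RNA was measured on 6 Affymetrix Gene 1.0 ST arrays of purified spermatogenic cells from C57BL/6 mice: 1 array of Rnf8 knockout (RNF8-KO, here KO) round spermatids, 1 of wild-type (WT) round spermatids, 2 of KO pachytene spermatocytes and 2 of WT pachytene spermatocytes. Pachytene spermatocytes are in meiotic prophase with their autosomes fully joined, and round spermatids are the haploid cells formed after both meiotic divisions. Rnf8 encodes a ubiquitin ligase that marks chromatin around DNA breaks and, in meiotic cells, over the sex chromosomes. The labels give neither the design of the knockout allele nor the age of the males. Cells of 3 to 4 males were pooled and separated by sedimentation in albumin, with a stated purity above 95%. Separate animals or preparations are not stated for the arrays of a group, so p-values measure the spread between arrays, which may be technical. The titles number both round spermatid arrays as replicate 2, and no other round spermatid array is analysed here.

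The synaptonemal complex has a fixed plan. SYCP2 and SYCP3 coat the axis of each chromosome as lateral elements, SYCP1 forms the transverse filaments that bridge both axes, and SYCE1, SYCE2, SYCE3 and TEX12 make up the central element where filaments from both sides meet. HORMAD1 and HORMAD2 sit on axes that are not yet joined, where they promote break formation and checkpoint signalling, and the ATPase TRIP13 strips them off as the axes join. In the mouse the complex is assembled from leptotene to pachytene and taken apart before the first division, so round spermatids have none.

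Whole-series checks bear on what follows. Cell type split the arrays along the leading principal component (77.7% of variance), and on the next (12.6%) KO pachytene array 2 stood apart at -26.9, with KO pachytene array 1 at 16.2, the WT pachytene arrays at 2.5 and 12.8, and KO and WT round spermatids at -13.5 and 8.9. The cluster that lists Rnf8, shared with the readthrough gene Gm28043, had a log2 intensity of 7.50 in KO and 7.78 in WT round spermatids, and of 7.86 and 8.05 in KO against 8.51 and 8.86 in WT pachytene spermatocytes. The labels do not say whether it lies in the deleted part, and its log2 difference of KO minus WT in pachytene spermatocytes was -0.74 (no test). Among the 10 round spermatid markers 7 were higher in the spermatid arrays and 0 lower, and their mean stayed high on the pachytene arrays too (mean log2 12.61 in KO and 12.63 in WT round spermatids, between 11.59 and 11.99 on the pachytene arrays). Of the 8 pachytene markers 2 were higher in round spermatids and 1 lower, and their mean hardly moved (12.51 in KO and 12.50 in WT round spermatids, between 12.53 and 12.65 on the pachytene arrays). Those that passed were Spag6 (1.14) and Pgk2 (0.66), both higher, and Piwil1 (-2.03), lower, and the other 5 did not pass.

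The start regions of 5 members are shown because each holds an E-box, and because 4 of these genes fell after meiosis while Syce2 rose. The E-box CACGTG, a palindrome, occurred in the 300-base promoter (250 bases before to 50 after the annotated start, RefSeq, GRCm38.p6) of 5 of 10 members, Sycp1, Sycp3, Syce2, Tex12 and Hormad1, and in 7.15% of 32851 promoters. Sycp2 and Hormad2, which hold none, fell as well, and Syce1 and Trip13, also without it, did not pass. Any link of motif and direction was not tested. The E2F motif TTCCCGCC, on either strand, occurred in 3 of 10, Syce2, Tex12 and Hormad1, and in 2.19% of promoters. A member with more than 1 annotated start counts if any of its promoters holds the motif, and counted by gene in the same way the shares were 8.09% and 2.52%. The 150 bases before the start are printed on the gene's strand, with E-boxes and E2F motifs in capitals (GGCGGGAA is the E2F motif read on the other strand), and no capital stretch overlaps another.
Sycp1, chr3:102936101-102936250, minus strand: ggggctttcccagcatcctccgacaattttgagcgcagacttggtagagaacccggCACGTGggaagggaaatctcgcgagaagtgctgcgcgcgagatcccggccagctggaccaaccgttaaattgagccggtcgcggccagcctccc
Sycp3, chr10:88459437-88459586, plus strand: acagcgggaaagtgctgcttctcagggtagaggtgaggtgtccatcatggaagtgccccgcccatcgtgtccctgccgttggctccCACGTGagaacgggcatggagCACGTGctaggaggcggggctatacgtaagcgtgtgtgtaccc
Tex12, chr9:50561269-50561418, minus strand: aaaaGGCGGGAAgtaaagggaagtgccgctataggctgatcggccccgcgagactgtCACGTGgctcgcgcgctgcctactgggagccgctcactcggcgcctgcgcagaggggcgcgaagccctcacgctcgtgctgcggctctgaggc
Hormad1, chr3:95559527-95559676, plus strand: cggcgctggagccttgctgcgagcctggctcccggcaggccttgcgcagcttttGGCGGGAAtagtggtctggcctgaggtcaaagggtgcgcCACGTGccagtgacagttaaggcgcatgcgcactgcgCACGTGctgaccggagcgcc
Syce2, chr8:84872108-84872257, plus strand: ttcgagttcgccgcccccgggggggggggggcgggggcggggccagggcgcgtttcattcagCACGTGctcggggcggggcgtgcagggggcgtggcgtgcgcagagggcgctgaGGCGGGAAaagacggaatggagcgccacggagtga
Sycp3 and Hormad1 carry 2 E-boxes each in these stretches, and for Syce2 the later of 2 annotated starts is shown. The MYB motif AACNGNC, searched on both strands, was in 6 of 10 members (Sycp2, Sycp3, Syce1, Syce2, Syce3 and Hormad1) and in 32.8% of promoters, and the palindrome TGACGTCA, bound by CREB and CREM, in 0 of 10 and in 1.79%. These are letter matches in a window, and no binding was measured here.

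The first comparison asks how transcripts of this scaffold stand after meiosis. In round spermatids 6 of the 9 measured members were lower than in pachytene spermatocytes, 1 was higher and 2 did not pass (limma, additive fit of genotype and cell type, 2 against 4 arrays, Benjamini-Hochberg adjusted p below 0.05). Over all 17925 genes 17.1% passed as lower and 17.8% as higher, 34.9% in all. Without either round spermatid array 4 members passed in place of 7. The median log2 difference was -0.67 over the 9 members and -0.06 over all genes. Both lateral element genes and Tex12 fell by more than 1 on the log2 scale, the HORMA genes and Sycp1 by less, and the central element gene Syce2 rose. This order holds for the cluster taken for each gene, as a second Hormad1 cluster fell by 1.68.

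**Figure D1:**
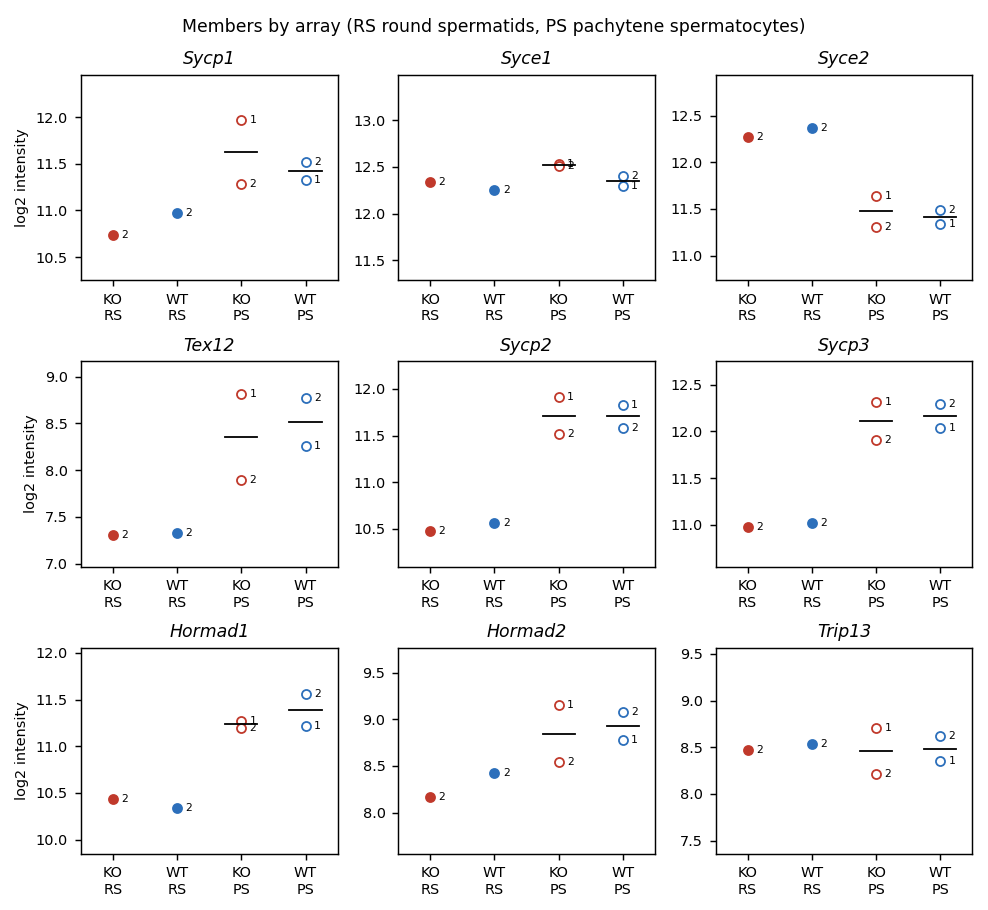
Log2 intensity of each measured member (vertical axis, the same span in every panel) on each array, with KO in red, WT in blue, round spermatids (RS) filled and pachytene spermatocytes (PS) open. Digits are replicate numbers and lines the means of 2 arrays; Sycp1, Sycp2, Sycp3, Tex12, Hormad1 and Hormad2 lie lower on both round spermatid arrays than on every pachytene array, and Syce2 lies higher.

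The lateral element genes had the smallest adjusted p-values of the members. Sycp3, on chromosome 10, had log2 intensities of 10.98 in KO and 11.02 in WT round spermatids, against 12.32 and 11.91 in KO and 12.04 and 12.29 in WT pachytene spermatocytes. Both spermatid arrays lay below all 4 pachytene arrays, and Sycp3 fell by 1.14 (SE 0.14, 2.21-fold lower, limma adjusted p = 0.000692). Sycp2, on chromosome 2, had 10.48 in KO and 10.56 in WT round spermatids, against 11.91 and 11.52 in KO and 11.83 and 11.58 in WT pachytene spermatocytes. It fell by 1.19 (SE 0.14, 2.28-fold lower, limma adjusted p = 0.000568), again without overlap of the cell types. The centred log2 profiles of Sycp2 and Sycp3 over the 6 arrays differed by a root mean square of 0.147. Other pairs of members lay about as close, with 0.127 for Sycp1 and Hormad2 and 0.155 for Sycp3 and Hormad1. Between the WT pachytene arrays the lateral element genes moved in opposite directions (array 1 minus array 2, 0.25 for Sycp2 and -0.24 for Sycp3). Neither transcript was gone from the spermatid fraction, where both still lay above log2 10, against a lower quartile of all clusters between 6.15 and 6.28. In purified but bulk fractions, fewer cells that hold a transcript and less of it per cell cannot be told apart.

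The transverse filament gene Sycp1, on chromosome 3, fell less. It had 10.74 in KO and 10.97 in WT round spermatids, against 11.97 and 11.28 in KO and 11.33 and 11.52 in WT pachytene spermatocytes. The cell types did not overlap, and the fall was 0.67 (SE 0.20, 1.59-fold lower, limma adjusted p = 0.0345). The KO pachytene arrays were 0.69 apart, as much as the fall itself. This call was lost without the KO round spermatid array (-0.45, adjusted p = 0.367), the WT round spermatid array (-0.88, adjusted p = 0.0872), WT pachytene array 1 (-0.74, adjusted p = 0.0513) or WT pachytene array 2 (-0.66, adjusted p = 0.105), and also with arrays centred on their medians (-0.63, adjusted p = 0.0816) or with all clusters tested (adjusted p = 0.0642).

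The central element genes did not move together. Tex12, on chromosome 9, whose protein forms fibres with SYCE2, had 7.31 in KO and 7.33 in WT round spermatids, against 8.82 and 7.89 in KO and 8.26 and 8.77 in WT pachytene spermatocytes. It fell by 1.12 (SE 0.26, 2.17-fold lower, limma adjusted p = 0.0105), with the lowest pachytene value, KO array 2, still above both spermatid arrays. The call was lost without either round spermatid array, at -1.19 without the KO (adjusted p = 0.0722) and -1.04 without the WT array (adjusted p = 0.123). Syce2, on chromosome 8 and encoding the partner of TEX12, went the other way. Its values were 12.27 in KO and 12.37 in WT round spermatids, against 11.64 and 11.31 in KO and 11.34 and 11.49 in WT pachytene spermatocytes. Every spermatid value lay above every pachytene value, and Syce2 rose by 0.87 (SE 0.13, 1.83-fold higher, limma adjusted p = 0.00141). Syce1, on chromosome 7, which links SYCP1 to the central element, had 12.34 in KO and 12.25 in WT round spermatids, against 12.53 and 12.51 in KO and 12.30 and 12.40 in WT pachytene spermatocytes. These ranges overlapped, and its difference of -0.14 did not pass (95% interval -0.38 to 0.10, limma adjusted p = 0.365). Among all 36 pairs of measured members, the profiles of Sycp2 and Syce2 were farthest apart (root mean square 0.979), followed by those of Syce2 and Tex12 (0.964).

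**Figure D2:**
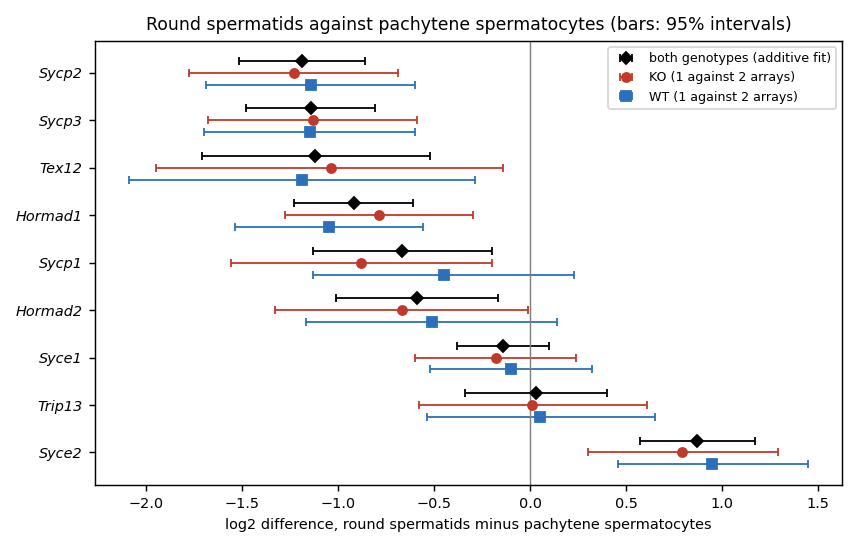
Log2 difference of round spermatids minus pachytene spermatocytes (horizontal axis) for each measured member, over both genotypes (black), in KO (red) and in WT (blue), with bars for the 95% interval of the limma fit. Sycp2 at -1.19 and Syce2 at 0.87 stand at the ends for both genotypes together, and Syce1 at -0.14 and Trip13 at 0.03 lie near 0.

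Of the HORMA domain genes, Hormad1, on chromosome 3, had 10.44 in KO and 10.34 in WT round spermatids, against 11.27 and 11.20 in KO and 11.22 and 11.56 in WT pachytene spermatocytes. The cell types did not overlap, and Hormad1 fell by 0.92 (SE 0.13, 1.89-fold lower, limma adjusted p = 0.00126). A second cluster annotated to Hormad1 had 9.26 in KO and 9.36 in WT round spermatids, against 11.47 and 10.35 in KO and 10.94 and 11.19 in WT pachytene spermatocytes. In a limma fit over all 29067 clusters that passed the same filter, the second cluster fell by 1.68 (SE 0.30, 3.19-fold lower, adjusted p = 0.00759) and the first by 0.92 (SE 0.14, adjusted p = 0.00446). Both clusters of Hormad1 fell, by unequal amounts. The annotation gives both the same accessions, and where each lies in the genome is not used here. Hormad2, on chromosome 11, had 8.17 in KO and 8.42 in WT round spermatids, against 9.15 and 8.54 in KO and 8.78 and 9.08 in WT pachytene spermatocytes. It fell by 0.59 (SE 0.18, 1.51-fold lower, limma adjusted p = 0.0367), and the gap between its WT round spermatid array and KO pachytene array 2 was narrow. For Hormad2 the call was lost without the KO round spermatid array (-0.51, adjusted p = 0.282), the WT round spermatid array (-0.67, adjusted p = 0.171) or WT pachytene array 2 (-0.54, adjusted p = 0.120), and with arrays centred on their medians (-0.55, adjusted p = 0.0857) or all clusters tested (adjusted p = 0.0663).

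Trip13, on chromosome 13, encodes the ATPase that removes the HORMA proteins from the axis. It had 8.47 in KO and 8.54 in WT round spermatids, against 8.71 and 8.21 in KO and 8.35 and 8.62 in WT pachytene spermatocytes, so the spermatid values fell inside the pachytene range. Its difference was 0.03 (95% interval -0.34 to 0.40, limma adjusted p = 0.901). In number, 6 of 9 members had both spermatid arrays below all pachytene arrays and 1 had both above, while 26.4% of all tested genes lay wholly below and 24.1% wholly above (50.5% in all).

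Within a genotype, where 1 spermatid array meets 2 pachytene arrays and borrows their spread, fewer members passed. These comparisons give the same differences as the additive fit without the other genotype's round spermatid array, so they are not separate evidence. In KO, Sycp2 (-1.23, adjusted p = 0.0156), Sycp3 (-1.13, adjusted p = 0.0206) and Hormad1 (-0.79, adjusted p = 0.0438) fell and Syce2 (0.79, adjusted p = 0.0448) rose, in a limma fit of 4 groups where 7.18% of genes passed as lower and 8.36% as higher (15.5% in all). In WT the same 4 genes passed, Sycp2 at -1.14 (adjusted p = 0.0139), Sycp3 at -1.15 (adjusted p = 0.0141), Hormad1 at -1.05 (adjusted p = 0.0134) and Syce2 at 0.95 (adjusted p = 0.0193), with 8.45% of genes lower and 11.5% higher (20.0% in all) in limma. Sycp1, Tex12 and Hormad2 kept negative differences in both genotypes without passing in either. The remaining Syce1 and Trip13 lay between -0.18 and 0.05. These counts depended on single arrays: without WT pachytene array 1 or 2 the KO count was 2 in both cases, and the WT count was 2 and 1, while without KO pachytene array 2 the KO count was 6. With all clusters tested the count was 0 in KO and 3 in WT.

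The fractions differed in other cell types as well. Of 9 Sertoli markers found, 6 were lower in round spermatids and 0 higher (limma), and of 6 Leydig markers 6 were lower. The log2 of the summed intensity was 12.01 in KO and 11.70 in WT round spermatids for Sertoli markers, against 12.55 to 12.83 on the pachytene arrays, and 10.32 and 10.03 for Leydig markers, against 12.20 to 12.75. Markers of early prophase, when the complex is first built, split: of 7 found, 3 were lower in round spermatids and 2 higher. Their log2 summed intensity was 12.38 in KO and 12.34 in WT round spermatids and between 13.03 and 13.19 on the pachytene arrays. Such a sum is weighted towards the markers of highest intensity. Their mean log2 moved less, at 8.93 in KO and 8.84 in WT round spermatids and between 8.95 and 9.32 on the pachytene arrays. Among 9 spermatogonial markers 1 was higher and 1 lower, with summed levels of 11.72 in KO and 11.55 in WT round spermatids and 11.89 to 12.08 in pachytene spermatocytes. Peritubular and vessel markers had 1 higher and 0 lower of 6 (11.82 in KO and 11.46 in WT round spermatids, 10.61 to 10.81 on the pachytene arrays), the higher one being Dcn (2.86) while the other 5 overlapped between the cell types, and macrophage and blood markers 2 higher and 0 lower of 5 (9.57 and 9.68, against 9.20 to 9.27). No marker found lay below the lower quartile of clusters on all 6 arrays. The part of these shifts in the differences of the members was not tested.

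The second comparison asks whether loss of Rnf8 alters these transcripts in pachytene spermatocytes. None of the 9 members passed for KO against WT (limma, 2 against 2 arrays, each adjusted p = 1), in a fit where 0% of genes passed and 430 had an unadjusted p under 0.05. The smallest unadjusted p among the members was 0.291, for Syce1. Log2 differences ran from -0.16 for Tex12 to 0.20 for Sycp1, with a median of -0.02 over the members and 0.03 over all genes. The 95% intervals, unadjusted and for 1 gene at a time, rest on the spread between these arrays. They show how large a difference these arrays could miss, and may not bound a change between animals. For Sycp3 the difference of -0.05 had a 95% interval of -0.50 to 0.39, for Sycp2 0.01 had -0.44 to 0.45, and for Hormad1 -0.15 had -0.55 to 0.25. The widest was that of Tex12, -0.90 to 0.58.

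In 8 of the 9 members the KO and WT pachytene arrays overlapped. The exception was Syce1, with 12.52 ± 0.01 in KO and 12.35 ± 0.07 in WT pachytene spermatocytes (SD, n = 2 each). Its difference of 0.17 (SE 0.15, limma adjusted p = 1) did not pass, and 14.9% of all tested genes lay wholly higher in KO, 10.2% wholly lower and 25.0% either way. For the others the replicate spread exceeded the genotype difference in at least 1 genotype. Sycp1 averaged 11.62 ± 0.48 in KO and 11.42 ± 0.14 in WT, and Tex12 8.36 ± 0.66 in KO and 8.52 ± 0.36 in WT pachytene spermatocytes (SD, n = 2 each).

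**Figure D3:**
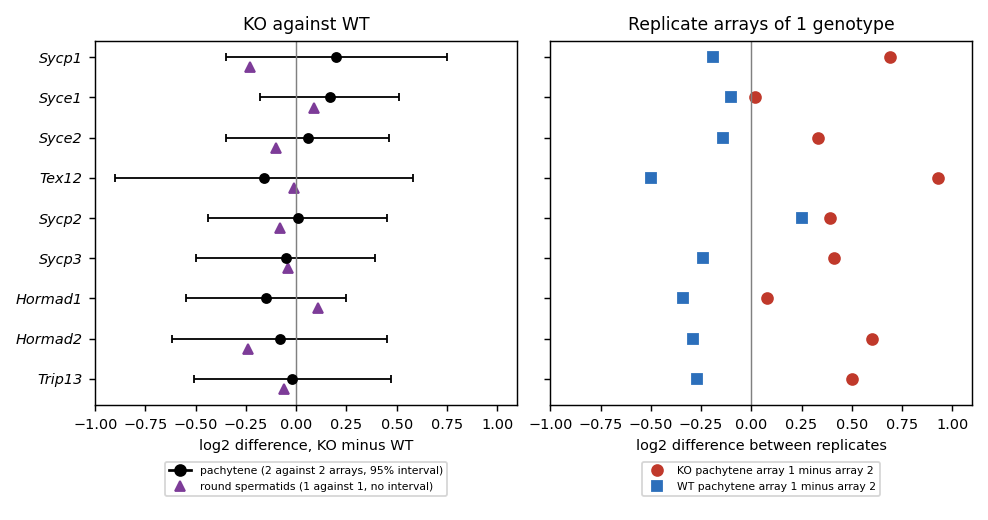
Left, log2 difference of KO minus WT in pachytene spermatocytes (black, bars for the 95% interval of the limma fit) and in round spermatids (purple, 1 array each); right, log2 difference between replicate pachytene arrays of KO (red) and WT (blue). All intervals cross 0, and the KO replicates of Tex12 differ by 0.93.

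The spread had a direction that the members shared. KO pachytene array 1 was above array 2 in 9 of 9 members, by 0.02 (Syce1) to 0.93 (Tex12) with a median of 0.41, while 41.8% of all tested genes were higher on array 1 and the median over all genes was -0.06. WT pachytene array 1 was below array 2 in 8 of 9, Sycp2 being the exception at 0.25, with a median of -0.24 over the members and 0.00 over all genes, of which 48.6% were higher on array 1. Several KO against WT values changed sign when 1 array was left out. Without KO array 2, Sycp3, Tex12, Hormad2 and Trip13 turned to 0.15, 0.31, 0.22 and 0.23, and without KO array 1, Sycp1, Sycp2 and Syce2 turned to -0.14, -0.19 and -0.11. Marker lists also differed between these arrays. KO array 1 stood higher than KO array 2 in the mean log2 of round spermatid markers (11.99 and 11.59) and of early prophase markers (9.32 and 8.95), and lower in that of Leydig markers (8.87 and 9.17). The other 5 lists differed by less than 0.10, and the part of any list in the members' shift was not tested. The fall of 6 and the rise of 1 member in round spermatids were still called when 1 KO pachytene array was left out, whichever it was. That did not hold for the other arrays. Sycp1 was lost without WT pachytene array 1 or 2 and Hormad2 without WT pachytene array 2, and 4 members passed when 1 round spermatid array was left out.

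Over both cell types, KO against WT gave differences from -0.14 (Hormad2) to 0.14 (Syce1), and 0 of 9 members passed (limma additive fit, 0% of genes passed and 979 had an unadjusted p under 0.05). In round spermatids, with 1 array per genotype and no test, the KO array differed from the WT array by -0.24 for Hormad2, -0.23 for Sycp1, -0.10 for Syce2 and 0.11 for Hormad1, and by less than 0.10 for the other 5. No member was 2-fold apart, as were 0.385% of tested genes (0.0335% higher and 0.351% lower in KO). The interaction of genotype and cell type, which sets the cell type difference in KO against that in WT, ran from -0.43 (Sycp1, 95% interval -1.39 to 0.53) to 0.25 (Hormad1, -0.44 to 0.95). It passed for 0 of 9 members, with 0% of genes passing and 130 at an unadjusted p under 0.05 in limma.

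Of 47 other genes of meiotic chromosome axes, 41 were tested, and in round spermatids 15 were lower, 12 higher and 14 did not pass in the additive limma fit, where 17.1% of all tested genes were lower and 17.8% higher. The median difference over all tested genes was -0.06. Cohesins are the ring complexes on which the lateral elements are laid. Of 9 cohesin genes 5 were higher, 0 lower and 4 did not pass, with a median difference of 0.75 (3 higher without the WT round spermatid array, and 1 lower without KO pachytene array 2). The meiotic kleisin gene Rec8, on chromosome 14, had 10.95 in KO and 10.96 in WT round spermatids, against 9.47 and 9.13 in KO and 9.47 and 9.09 in WT pachytene spermatocytes, and rose by 1.67 (SE 0.15, limma adjusted p = 0.000217). Smc3 rose by 1.35 and the X-linked Stag2 by 2.00, while the meiosis-specific Stag3 (-0.17) and Smc1b (0.14) did not pass.

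Among genes that fasten telomeres to the nuclear envelope, 4 of 6 were lower, 0 higher and 2 did not pass, with a median of -1.12. Cdk2, whose kinase sits at telomeres and crossover sites, fell by 2.06, and Majin and Terb2, of the complex that anchors telomeres to the envelope, by 1.24 each. The SE was 0.13 for Majin and 0.29 for Terb2, whose KO pachytene arrays lay at 9.50 and 8.45. Within a genotype the difference of Terb2 was -1.34 in KO and -1.14 in WT and did not pass in either. The kinase and chromatin genes that respond to unjoined axes were lower in 4 of 5 and higher in 1, with falls of 1.28 for the checkpoint kinase Atr, 1.06 for its activator Topbp1 and 1.04 for the adaptor Mdc1, and a rise of 1.09 for Brca1 that was lost without the WT round spermatid array. Other central region and crossover factors had 1 gene higher, 3 lower and 5 that did not pass of 9, with 5 lower without KO pachytene array 2. The crossover regulator Ccnb1ip1 fell by 1.90, the mismatch repair gene Mlh3 by 1.75 and the helicase gene Hfm1 by 1.03, and the X-linked Tex11, whose protein binds SYCP2 in the mouse, rose by 1.30. Tex11 had 7.24 in KO and 7.26 in WT round spermatids, against 6.41 and 5.61 in KO and 5.89 and 5.91 in WT pachytene spermatocytes. The last 3 lie under the lower quartile of all clusters, so the size of its rise is uncertain.

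Break formation genes, some of whose proteins load on HORMAD1-coated axes, were split, with 4 of 7 higher, 2 lower and 1 that did not pass. The 4 higher became 0 without either round spermatid array, 1 without WT pachytene array 1 and 2 without WT pachytene array 2, and the 2 lower became 1 without the KO round spermatid array. Iho1, the axis partner of HORMAD1, fell by 0.97 and the break-forming enzyme gene Spo11 by 0.71, while Rec114 and the histone methyltransferase gene Prdm9 rose by 0.45 each and Mei4 by 0.39. Of the other HORMA domain genes and Trip13 partners, 1 of 5 was higher, 2 lower and 2 did not pass, with 0 higher and 1 lower without either round spermatid array and 1 lower without either WT pachytene array. The spindle checkpoint HORMA gene Mad2l1 fell by 1.59 and Mad2l2 by 0.44, and Mad2l1bp, the adaptor through which TRIP13 acts on MAD2, rose by 0.68. In none of these 6 lists did a gene pass for KO against WT in pachytene spermatocytes in limma.

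**Figure D4:**
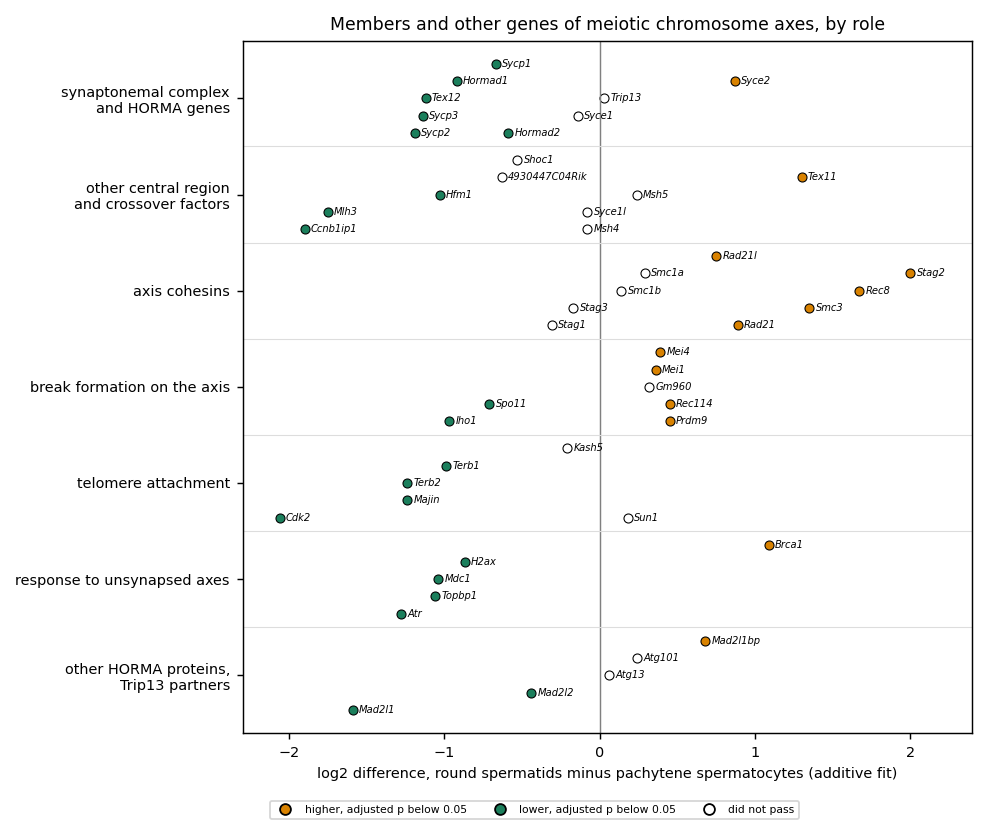
Log2 difference of round spermatids minus pachytene spermatocytes in the additive limma fit (horizontal axis) for the measured members (top row) and for 41 other genes by role, 1 point per gene; filled points passed an adjusted p of 0.05. Cohesins hold 5 points above 0 that passed and telomere attachment genes 4 below 0, while the members have 6 below and Syce2 above.

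The genes whose pattern over the 6 arrays was most like that of a member were found by the root mean square difference of centred log2 values, among 16668 other named genes. The values come from the same 6 arrays, whose main difference is the cell type, so they describe likeness and no more. Closest to Sycp3 were Golga7 (0.042) and Trappc1 (0.055), to Sycp2 Sft2d1 (0.079) and Mtr (0.080), and to Sycp1 Bmpr1a (0.048) and Iars2 (0.072). Hormad1 lay nearest to the kinetochore gene Nsl1 (0.029) and to Mir17hg (0.039), Hormad2 to Fbxo25 (0.027) and Miga1 (0.043), and Tex12 to Efcab7 (0.090) and Zfp939 (0.104). Mir17hg had 5.80 in KO and 5.66 in WT round spermatids, under the lower quartile of all clusters (between 6.15 and 6.28), so its likeness to Hormad1 is uncertain. For Syce2 the nearest were the dynein light chain gene Dynlrb1 (0.032) and the mitochondrial protease subunit gene Clpx (0.036), both with spermatid values above every pachytene value.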

How the data were processed

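RNA of purified KO and WT round spermatids and pachytene spermatocytes was hybridised to 6 single-colour arrays. The authors deposited linear intensity values. Per the submitters' processing notes, RMA and Affymetrix Expression Console 1.1 were used; their options and the genome build are not given. Of 35556 clusters, 21789 had 1 gene symbol in the platform annotation, 1621 several and 12146 were not listed; 21698 matched a RefSeq table (GRCm38.p6) by gene identifier. Log2 of the intensity was taken, and genes reaching log2 6 on any array were tested with limma 3.58.1 in R 4.3.3. The 4-group fit had 2 residual degrees of freedom, both from the pachytene pairs, and the additive fit (genotype plus cell type) had 3. P-values were adjusted by Benjamini-Hochberg over all genes tested. The number of arrays limits the precision. Alternatives changed the filter, scaling, offset, prior, cluster choice, replicate block and arrays included. Named genes are the 10 members, Rnf8, up to 3 genes in each direction per pathway list with the largest difference among those that passed, Stag3 and Smc1b (chosen after their values were seen), Piwil1, Spag6, Pgk2 and Dcn (likewise) and the 2 nearest profiles of each member that passed. Members and lists were chosen with earlier results of these data known. The additive fit of the cell type difference was tested on simulated data with independent noise for each gene and array. Shifts shared by many genes on 1 array were not simulated.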

Additional observations from a re-analysis of the deposited data

How the results depend on the processing

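Across the alternatives run, Sycp2, Sycp3 and Hormad1 were called lower and Syce2 higher in round spermatids over both genotypes under all 15, at -1.27 to -1.03, -1.23 to -1.06, -1.05 to -0.79 and 0.79 to 0.95. Sycp1 and Hormad2 passed in 8 of 15 each and Tex12 in 13. The count of 7 members called was 5 with arrays centred on their medians, with all clusters tested and with the replicate block, 6 by the mean of the 4-group contrasts, and 4 to 7 with 1 array left out (4 without either round spermatid array). The block lost Sycp1 (-0.54, adjusted p = 0.109) and Hormad2 (-0.51, adjusted p = 0.108), and the mean of the contrasts lost Hormad2 (adjusted p = 0.0614), in limma. Within KO the count of 4 was 3 with no filter (Syce2 lost, adjusted p = 0.0512), 2 with arrays centred on their medians, 0 with all clusters (1219 clusters called), 5 with the replicate block and 2 to 6 with 1 array left out; within WT it was 3 with all clusters (Syce2 lost, adjusted p = 0.0526), 5 with the block and 1 to 5 with 1 array left out. The labels do not say whether same-numbered arrays belong together, and the main fits do not pair them. Deviations of same-numbered pachytene arrays correlated at -0.23 across genes, which cannot settle this with 2 arrays per genotype. For KO against WT in pachytene spermatocytes the block gave 43 genes and the crossed block, chosen after seeing the data, 88, with 0 members in both. Over all genes, leaving out 1 array moved the cell type count of 6255 to between 2786 and 8849.

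Small genotype values changed sign. With arrays centred on their medians, KO against WT over both cell types was -0.01 for Syce2 and the interaction -0.06 for Sycp3; by the mean of the 4-group contrasts, KO against WT was -0.02 for Sycp1 and -0.02 for Syce2. With 1 array left out, KO against WT in pachytene spermatocytes ran from -0.14 to 0.54 for Sycp1, -0.19 to 0.20 for Sycp2, -0.26 to 0.15 for Sycp3, -0.11 to 0.22 for Syce2, -0.63 to 0.31 for Tex12, -0.32 to 0.02 for Hormad1, -0.39 to 0.22 for Hormad2 and -0.27 to 0.23 for Trip13. Over both cell types it ran from -0.18 to 0.21 for Sycp1, -0.14 to 0.08 for Sycp2, -0.16 to 0.07 for Sycp3, -0.10 to 0.09 for Syce2, -0.36 to 0.17 for Tex12, -0.15 to 0.06 for Hormad1, -0.33 to 0.02 for Hormad2 and -0.18 to 0.10 for Trip13. The interaction ran from -0.28 to 0.10 for Sycp2, -0.19 to 0.22 for Sycp3, -0.32 to 0.01 for Syce2, -0.32 to 0.61 for Tex12, -0.46 to 0.14 for Hormad2 and -0.29 to 0.21 for Trip13, and round spermatids against pachytene spermatocytes for Trip13 from -0.07 to 0.14 over both genotypes, -0.24 to 0.26 in KO and -0.08 to 0.19 in WT. The cause of these changes was not tested.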
